A study of Oncorhynchus tshawytscha with 17 samples.

Results

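The genes described here are nuclear genes of the mitochondrial translation machinery, measured in the hindgut of Chinook salmon (Oncorhynchus tshawytscha). They were chosen by symbol: mitochondrial ribosomal proteins (mrpl and mrps genes), the factors mrrf, tsfm, tufm, gfm1, gfm2, mtif2, mtif3, mtrf1 and mtrf1l, and the mitochondrial tRNA synthetases, whose symbols end in ars2. The choice found 58 of the 42554 named genes of the count table. By symbol alone, 24 of these 58 were classed as large subunit proteins, 17 as small subunit proteins, 8 as translation factors and 9 as tRNA synthetases. No tufm entry was found by this choice, and entries that carry only a LOC identifier were not members.

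The study asked which host genes of the hindgut differ with treatment of the gut microbiota. Diploid fish of 3 groups were compared, with 1 library per fish. The 5 antibiotic fish had received antibiotics for 10 days, the 6 probiotic fish had received probiotics for 10 days, and the 6 control fish are labelled as controls, with no duration of their own. Which antibiotics and probiotic strains were given, and at what dose, is not stated in the sources. Fish are named by the number and letter in their library titles after abx, pro or ctl: abx67A, abx67B, abx67C, abx91A and abx91B, pro115A to pro115C and pro139A to pro139C, and ctl12A to ctl12C and ctl35A to ctl35C. The labels do not say whether fish with the same number shared a tank.

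Mitochondria keep a small genome of their own, and its messages are read inside the organelle by a ribosome that is distinct from that of the cytosol. The RNAs of this ribosome come from the mitochondrial genome, whereas all of its proteins, its translation factors and its tRNA synthetases are made in the cytosol from nuclear genes and imported. Its products are core subunits of the respiratory chain and the ATP synthase, on which epithelial transport depends. The mitochondrial ribosome descends from a bacterial ribosome, and some antibiotics that block bacterial ribosomes can also slow it. Whether the antibiotics used here are of that kind is not known from the sources.

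Each library held 28.6 to 61.1 M (1e6) counts on named genes, and the 58 genes together took 0.089 to 0.143% of them. All 58 were among the 30221 genes with enough counts to test, and the fewest counts of any of them in a fish were 44, for yars2. Levels are given as CPM (counts per 1e6 counts on tested genes, after TMM scaling), which is used to compare fish, or as TPM (counts per annotated length, scaled to the same sum in every fish), which is used to compare genes. Fold changes and p-values are from edgeR's quasi-likelihood F-test, 2-sided, in a fit of all 17 fish, and adjusted p-values are by Benjamini-Hochberg over all tested genes. The p-values weigh the difference between groups against the spread between individual fish. In bulk tissue, fewer cells of a type and less RNA per cell cannot be told apart.

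The median level of the 58 genes was 22.6 TPM, against 4.39 TPM over all tested genes, and their median annotated length was 1293 bases, against 2379. The most abundant was mrps21, a small protein of the small subunit, at 78.8 ± 6.66 TPM in antibiotic, 91.2 ± 7.46 in probiotic and 81.6 ± 6.13 in control fish (SD, n = 5, 6 and 6). Next came mrps9, another small subunit protein, at 75.9 ± 6.40, 73.9 ± 7.50 and 71.8 ± 8.48 TPM in antibiotic, probiotic and control fish. The ranges of these top genes overlapped, 74.5 to 102 TPM for mrps21 and 61.3 to 86.4 TPM for mrps9 over all fish. They were followed by mrps24, mrpl28, mrpl11 and mrpl24, whose means over 17 fish lay between 42.7 and 45.2 TPM.

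At the low end stood 3 tRNA synthetases, the enzymes that load amino acids onto mitochondrial tRNAs. The methionine enzyme mars2 was at 1.85 ± 0.484, 2.08 ± 0.407 and 1.44 ± 0.294 TPM in antibiotic, probiotic and control fish, the tyrosine enzyme yars2 at 1.91 ± 1.01, 2.32 ± 0.786 and 1.37 ± 0.561 TPM. The alanine enzyme aars2 followed at 2.62 ± 0.238, 3.08 ± 0.827 and 2.33 ± 0.694 TPM. The isoleucine enzyme iars2 was far more abundant, at 36.2 ± 4.12, 41.6 ± 4.80 and 38.1 ± 2.65 TPM, and in no fish did it come near the other 8 synthetases, whose highest value was 14.6 TPM. Transcripts of the ribosomal proteins spanned a range from 11.07 TPM (mrps31) to 84.2 TPM (mrps21) in their means over 17 fish.

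**Figure D1:**
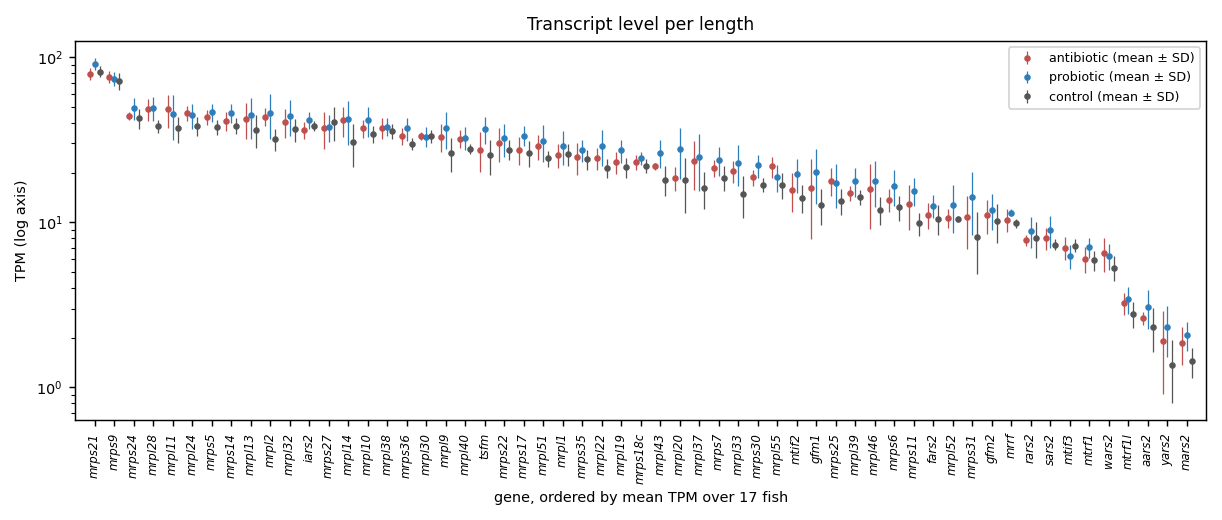
Transcript level per length of 57 of the genes in TPM (log axis), ordered by the mean over 17 fish, with points and bars for the mean and SD of 5 antibiotic, 6 probiotic and 6 control fish. The order starts with mrps21 and mrps9 and ends with 3 tRNA synthetases, and for most genes the bars of the groups overlap.

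The 58 genes varied together from fish to fish. After the group means were removed, a single component held 70.3% of the variance of the 58 genes in log2 CPM, against 23.3% over all tested genes, and 57 of the 58 loaded on it in the same direction. The exception was mrps9, which was also the steadiest gene, with a biological coefficient of variation of 0.134. Within the classes the share was 78.6% for the large subunit, 71.1% for the small subunit, 76.7% for the factors and 60.9% for the synthetases. Other gene lists shared the trait to differing degrees. It was 89.9% for 24 cell division genes, 76.6% for 18 cytosolic tRNA synthetase genes, 63.8% for 25 mitochondrial import genes, 61.6% for 58 oxidative phosphorylation genes, 50.8% for 50 assembly genes and 41.3% for 41 cytosolic ribosomal protein genes.

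A mean deviation per fish shows where the high and low fish stood. For each gene the mean log2 CPM of the 17 fish was subtracted, and the differences were averaged over the 58 genes. The antibiotic fish had 0.064 (abx67A), 0.39 (abx67B), -0.23 (abx67C), -0.14 (abx91A) and -0.032 (abx91B). The probiotic fish spanned -0.24 (pro115B) to 0.45 (pro139C) with a median of 0.12, and the control fish -0.39 (ctl35B) to 0.27 (ctl12C) with a median of -0.15. The groups overlapped almost fully: each held a fish above 0.25 and a fish below -0.2.

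The gene counts placed the single fish likewise. Fish pro139C was the highest of all 17 fish for 22 of the 58 genes, abx67B and pro115C for 12 each and ctl12C for 8. Fish ctl35B was the lowest of all fish for 28 genes. These 4 high fish were above the gene's 17-fish median for 56 (pro139C), 54 (abx67B), 54 (pro115C) and 53 (ctl12C) of the 58 genes, whereas abx67C was above it for 2, ctl12B and ctl35B for 4 each.

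**Figure D2:**
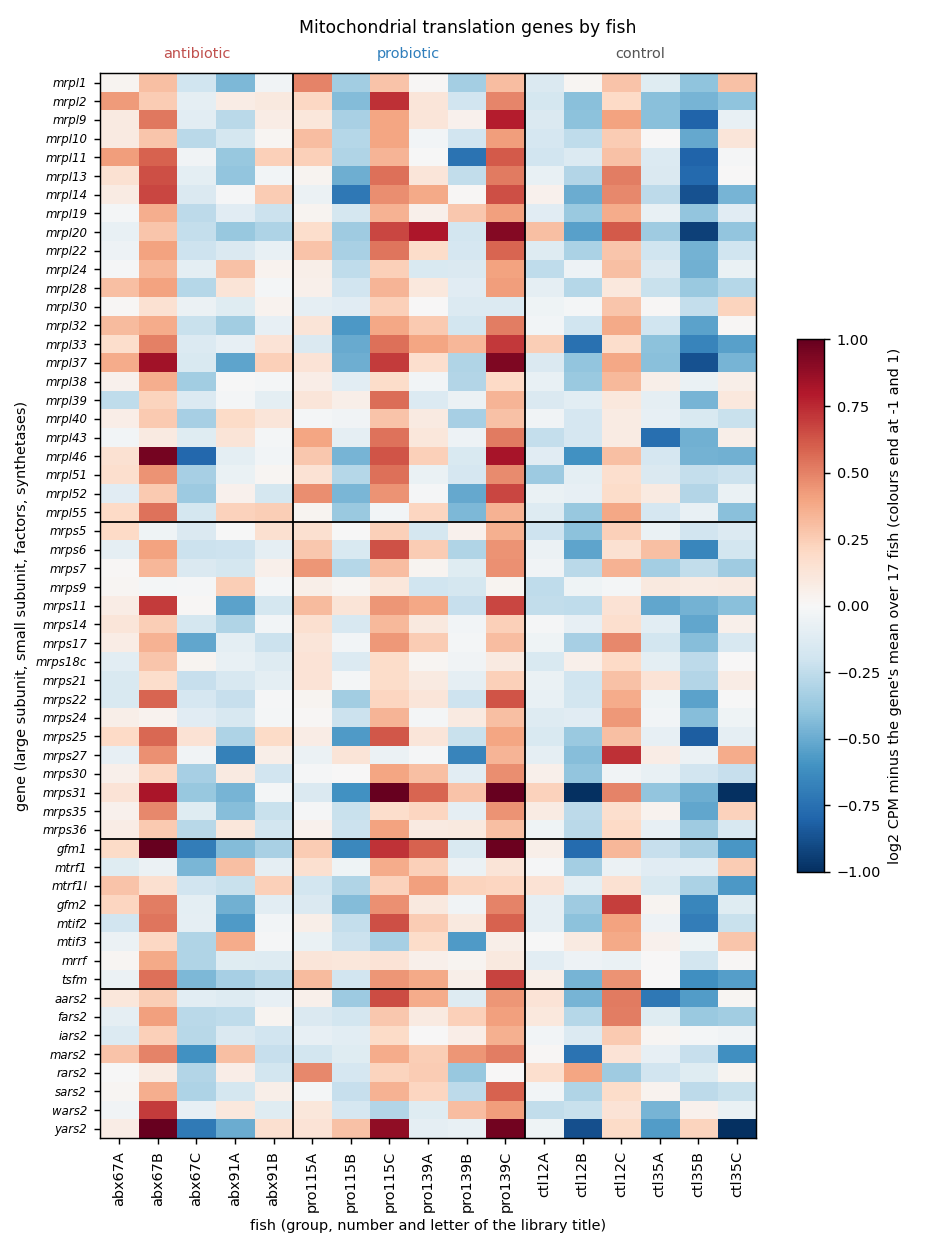
Log2 CPM of 57 of the genes (rows, by class) in each of the 17 fish (columns, antibiotic, probiotic, control), as the difference from that gene's mean over 17 fish, with colours ending at -1 and 1. Fish abx67B, pro115C, pro139C and ctl12C are red over nearly all rows and ctl35B is blue over most, while the mrps9 row is pale throughout.

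Other measures moved with the high fish and with some of the low fish. The 4 high fish also had high cell division genes: the same kind of mean deviation over 24 cell division genes was 1.02 in abx67B, 1.11 in pro115C, 0.94 in pro139C and 0.71 in ctl12C. Of the 4 lowest fish, pro115B had -1.45 and ctl35B -1.80 for cell division, but abx67C had 0.11 and ctl12B -0.082. Fish abx67A had 0.77 for cell division and only 0.064 for the 58 genes. Smooth muscle genes ran the other way in most of them, with -0.88 in abx67B, -0.11 in pro115C, -0.97 in pro139C and -0.53 in ctl12C, and 0.18 in abx67C, 0.30 in ctl12B and 0.35 in ctl35B, though -0.21 in pro115B. The part of these cell types in this pattern between fish was not tested. A fit with the smooth muscle mean as a covariate, given below, concerns the group differences only.

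The mean deviation by class kept the same order of groups. For the large subunit it averaged 0.045 ± 0.24 in antibiotic, 0.12 ± 0.33 in probiotic and -0.16 ± 0.26 in control fish (SD, n = 5, 6 and 6). For the small subunit it averaged -0.0079 ± 0.22, 0.12 ± 0.23 and -0.11 ± 0.23, for the factors -0.030 ± 0.28, 0.13 ± 0.25 and -0.10 ± 0.24, and for the synthetases -0.0030 ± 0.26, 0.13 ± 0.22 and -0.13 ± 0.20 in antibiotic, probiotic and control fish. In every class the SD within a group was close to or larger than the gap between the group means.

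**Figure D3:**
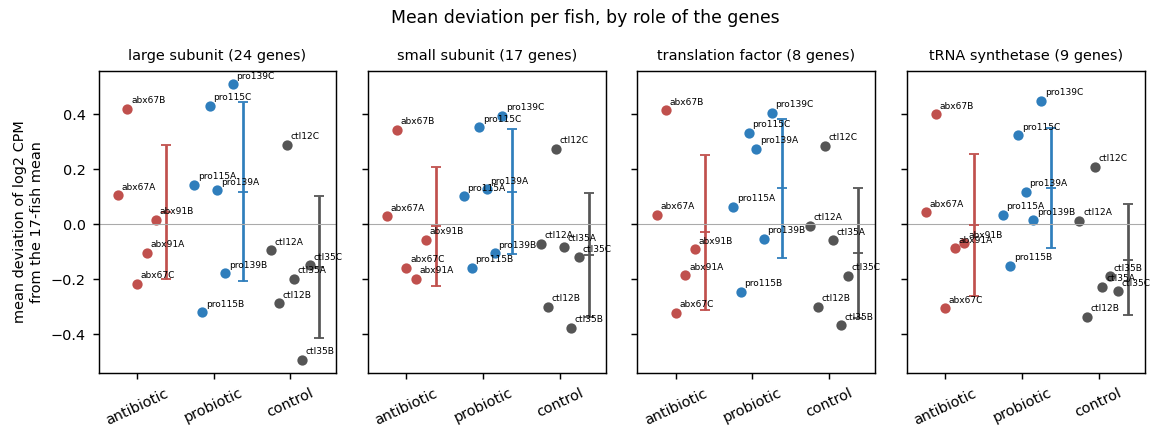
Mean deviation of log2 CPM from the 17-fish mean (vertical axis) for each fish, in 4 panels by class, with labelled points for fish and bars for the group mean and SD. In each panel abx67B leads the antibiotic fish, pro139C the probiotic fish and ctl12C the control fish, and the 3 groups overlap.

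The probiotic comparison asks which of these genes differed after 10 days of probiotics. Most of them had slightly higher levels in probiotic than in control fish, but none passed the test. Of the 58 genes, 54 (93.1%) had a fitted fold change above 1, against 50.7% of all tested genes. Some other lists had like shares, with 100% of cytosolic tRNA synthetase, 100% of cell division and 92% of mitochondrial import genes. The share was 82% for assembly, 70.7% for oxidative phosphorylation and 53.7% for cytosolic ribosomal protein genes. The median log2 fold change of the 58 genes was 0.23, against 0.0047 over all tested genes. No member was called at an adjusted p under 0.05, and neither was any other gene (0% of 30221). The members' adjusted p-values ran from 0.446 to 0.984. An unadjusted p under 0.05 was found for 12 members, all of them higher. Of all tested genes, 5.29% had it in that direction and 4.42% in the other. The 58 genes varied together between fish, so counts of members, here and in the later comparisons, are not counts of separate results. DESeq2 and limma-voom also called 0 of the 58 at an adjusted p under 0.05, where DESeq2 called 0.113% and limma-voom 0% of all genes tested. At an unadjusted p under 0.05 each gave 14 members, and the share of all genes at that threshold was not counted for these tools.

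Among large subunit proteins the smallest p was that of mrpl43, a protein that bacterial ribosomes lack. It was at 10.39 to 16.2 CPM, median 13.3, in probiotic fish, against 6.54 to 11.7 CPM, median 9.65, in control fish. Its log2 fold change was 0.48 ± 0.15 (SE; edgeR adjusted p = 0.446), and 4 of 6 probiotic fish stood above every control fish. The protein mrpl2, a core protein of the peptidyl transferase region, was at 21.5 to 48.3 CPM, median 32.6, in probiotic and 21.0 to 33.3 CPM, median 21.8, in control fish. Its log2 fold change was 0.47 ± 0.17 (adjusted p = 0.457). Only ctl12C reached the level of the middle probiotic fish.

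The other large subunit genes with a small p ran alike. For mrpl33 the log2 fold change was 0.55 ± 0.22, with 5.80 to 13.5 CPM, median 10.7, in probiotic and 4.91 to 9.79 CPM, median 5.92, in control fish. For mrpl28 it was 0.30 ± 0.13, with 26.1 to 39.8 CPM in probiotic and 22.99 to 32.0 CPM in control fish, and for mrpl22, a protein of the exit tunnel, 0.38 ± 0.17, with 8.67 to 16.3 and 7.83 to 13.2 CPM in probiotic and control fish. Their edgeR adjusted p-values were 0.473, 0.494 and 0.505, and mrpl9 also had an unadjusted p under 0.05, with a log2 fold change of 0.42 ± 0.20. Over the 24 large subunit genes, 23 were above 1-fold, with a median of 0.26. The exception was mrpl30, at -0.078 ± 0.10.

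Of the small subunit, mrps11 at the platform was at 4.81 to 9.03 CPM, median 7.24, in probiotic and 3.92 to 6.25 CPM, median 4.47, in control fish. Its log2 fold change was 0.60 ± 0.20 (edgeR adjusted p = 0.446), and 4 of 6 probiotic fish exceeded every control fish. For mrps30, which carries a small subunit symbol although its mammalian protein sits in the large subunit, levels were 15.8 to 23.6 CPM in probiotic and 12.95 to 17.6 CPM in control fish, a log2 fold change of 0.33 ± 0.13 (adjusted p = 0.459). The largest fold change of all 58 genes was that of mrps31, at 0.73 ± 0.32 (adjusted p = 0.496), but its levels were wide in both groups, 7.69 to 23.9 CPM in probiotic and 5.55 to 16.5 CPM in control fish. Over the 17 small subunit genes 15 were above 1-fold, with a median of 0.23, and mrps9 (-0.018 ± 0.089) and mrps27 (-0.17 ± 0.20) were below.

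The translation factors act in turn during a round of protein synthesis. At initiation, mtif2 brings in the initiator tRNA, and it was at 19.0 to 34.9 CPM, median 25.3, in probiotic and 13.8 to 29.5 CPM, median 20.1, in control fish, a log2 fold change of 0.41 ± 0.20. Its partner mtif3 was the factor that stood below 1-fold, at 3.34 to 5.66 CPM, median 4.51, in probiotic and 4.82 to 6.47 CPM, median 5.21, in control fish (-0.27 ± 0.15). The groups overlapped for both factors, though for mtif3 4 of 6 probiotic fish lay below every control fish. The edgeR adjusted p-values of mtif2 and mtif3 were 0.532 and 0.565.

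For elongation, gfm1 moves the ribosome along its message, and it was at 16.4 to 50.7 CPM, median 34.5, in probiotic and 15.1 to 32.3 CPM, median 21.2, in control fish (0.59 ± 0.30, adjusted p = 0.540). The exchange factor tsfm, which recharges the elongation factor that delivers tRNAs, was at 18.4 to 33.5 and 13.7 to 28.7 CPM in probiotic and control fish (0.44 ± 0.21, adjusted p = 0.513). The release factors mtrf1 and mtrf1l, which end translation at stop codons, had log2 fold changes of 0.19 ± 0.14 and 0.24 ± 0.17.

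At the end of the round mrrf and gfm2 take the ribosome apart. The recycling factor mrrf was at 9.35 to 10.09 CPM, median 9.88, in probiotic fish, against 8.09 to 9.29 CPM, median 8.83, in control fish. All 6 probiotic fish lay above all 6 control fish, the only member without overlap between these groups; 0.126% of all tested genes had none in that direction and 0.165% in the other. The difference was small, a log2 fold change of 0.15 ± 0.11 with an unadjusted p of 0.177 and an adjusted p of 0.641. For gfm2 it was 0.13 ± 0.22.

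All 9 tRNA synthetases were above 1-fold in probiotic fish, with a median of 0.19. For yars2 the log2 fold change was 0.71 ± 0.33 (adjusted p = 0.512), at 2.55 to 5.35 CPM in probiotic and 1.15 to 3.17 CPM in control fish, and for mars2 0.46 ± 0.21 (adjusted p = 0.510), at 3.36 to 5.47 and 2.27 to 4.22 CPM. These were also the least abundant synthetases, at 44 to 307 counts per fish for yars2 and 95 to 303 for mars2. The part of counting error in their fold changes was not tested. The abundant enzyme iars2 was at 79.7 to 109 CPM in probiotic and 77.6 to 103 CPM in control fish (0.063 ± 0.11). The enzymes for phenylalanine (fars2), arginine (rars2) and serine (sars2) had log2 fold changes of 0.18 ± 0.17, 0.090 ± 0.16 and 0.23 ± 0.16.

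The size of the probiotic difference was bounded for most genes: 50 of the 58 had a 95% interval whose upper end was under a log2 fold change of 1. Without abx67B, pro115C and pro139C and ctl12C, chosen after seeing the data, 52 of 58 genes were above 1-fold with a median of 0.16. With the smooth muscle mean as a covariate it was 48 genes, with a median of 0.14 and 3 genes at an unadjusted p under 0.05. Leaving out single fish moved that last count between 4 (without pro139C or ctl12B) and 27 (without ctl12C). For the fits of this paragraph no share of all tested genes at that threshold was counted.

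**Figure D4:**
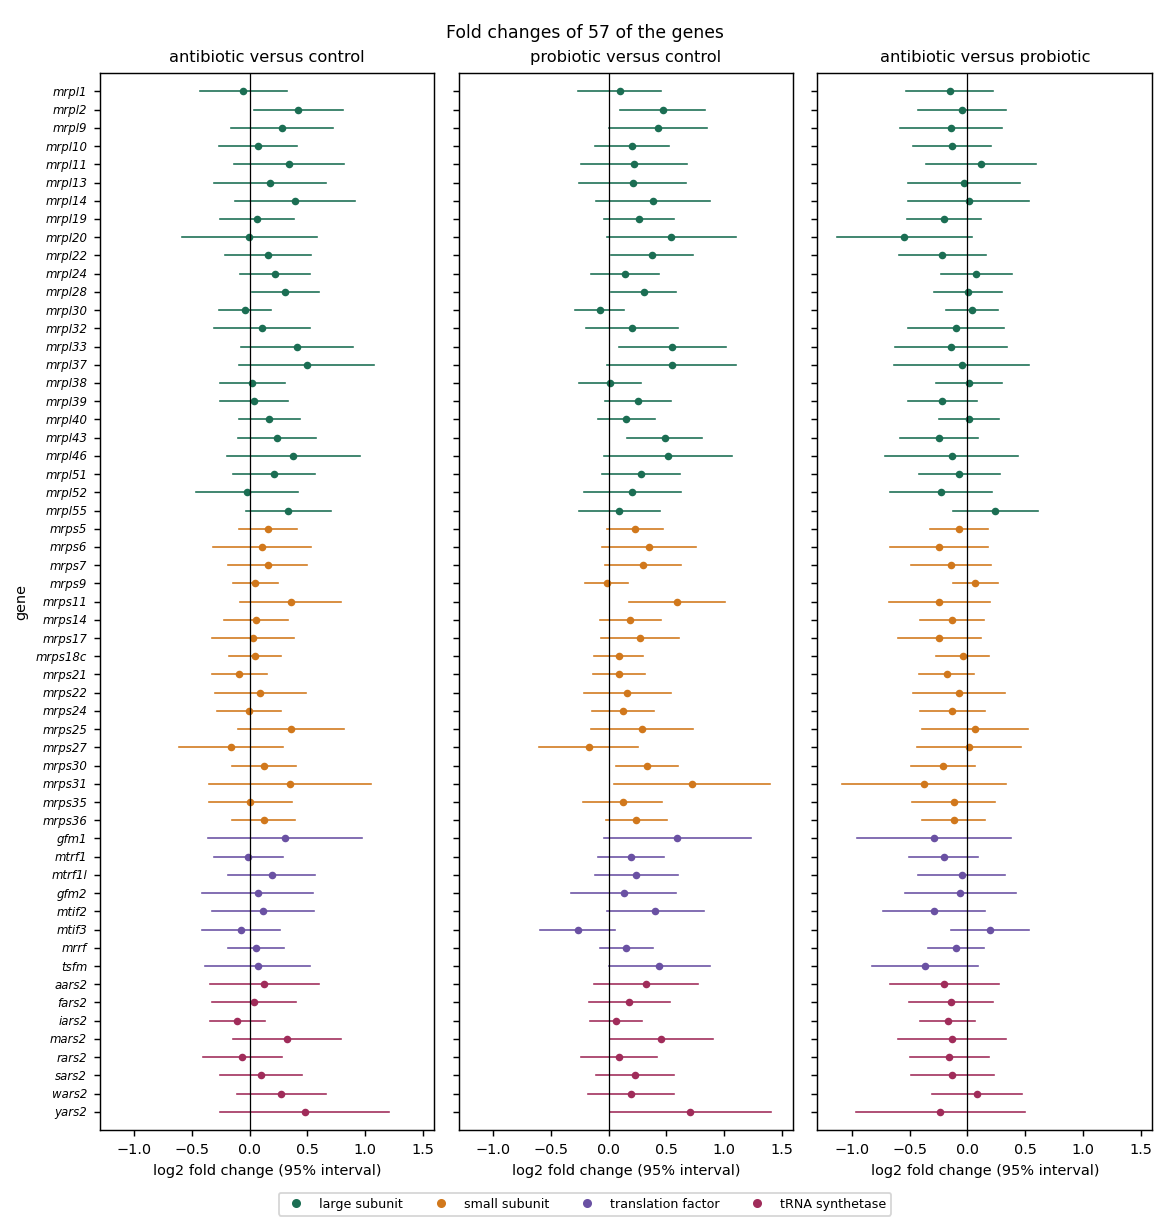
Fitted log2 fold change (horizontal axis) with its 95% interval for 57 of the genes (rows, coloured by class) in the 3 comparisons. Points lie right of 0 for 46 genes in antibiotic versus control, 53 in probiotic versus control and 13 in antibiotic versus probiotic, and most intervals include 0.

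The antibiotic comparison showed smaller differences. Of the 58 genes, 46 (79.3%) were above 1-fold in antibiotic against control fish, against 53.0% of all tested genes. Their median log2 fold change was 0.11, against 0.019 over all tested genes. The share was 95.8% for cell division, 94.4% for cytosolic tRNA synthetase, 90.2% for cytosolic ribosomal protein and 84% for mitochondrial import genes. It was 76% for assembly and 58.6% for oxidative phosphorylation genes. No tested gene was called by edgeR or limma-voom (0% of 30221), and DESeq2 called 0.0866% of genes and none of the 58. An unadjusted p under 0.05 was found for 2 members by each of the 3 tools. With edgeR both were higher, a result that 3.68% of all tested genes had, and 2.53% were lower. No member was free of overlap, against 0.199% of all tested genes higher and 0.285% lower.

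Those 2 members were mrpl2 and mrpl28. Levels of mrpl2 were 39.0, 34.5, 27.2, 30.5 and 31.0 CPM in antibiotic fish, in the order given above, against 21.0 to 33.3 CPM, median 21.8, in control fish (0.42 ± 0.18, adjusted p = 0.803). All 5 antibiotic fish were above every control fish but ctl12C. Levels of mrpl28 were 36.6, 39.4, 24.4, 32.5 and 29.4 CPM in antibiotic fish, against 22.99 to 32.0 CPM, median 24.95, in control fish (0.31 ± 0.14, adjusted p = 0.803). Here abx67C was as low as the controls.

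Further large subunit genes followed in order of p. They were mrpl55 (0.33 ± 0.18), mrpl33 (0.41 ± 0.23), mrpl37 (0.49 ± 0.28) and mrpl14 (0.39 ± 0.25), with edgeR adjusted p-values from 0.816 to 0.842. For mrpl37, which had the highest fold change of the 58, the antibiotic fish had 26.2, 36.1, 18.2, 14.0 and 23.8 CPM, against 11.04 to 26.5 CPM, median 15.2, in control fish. Only abx67B lay above all controls, and abx91A lay below the control median. Over the 24 large subunit genes 20 were above 1-fold, with a median of 0.19.

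The small subunit had 14 of 17 genes above 1-fold, with a median of 0.092. Its smallest p-values were those of mrps11, at 5.94, 9.19, 5.72, 3.89 and 5.002 CPM in antibiotic and 3.92 to 6.25 CPM in control fish (0.35 ± 0.21), and of mrps25 (0.36 ± 0.22). The lowest fold change of all 58 was that of mrps27, at -0.16 ± 0.21. The abundant mrps21 and mrps9 were close to no difference, at -0.091 ± 0.11 and 0.049 ± 0.093.

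The factors gave 6 of 8 genes above 1-fold, with a median of 0.068. Values of gfm1 were 29.3, 52.7, 15.9, 19.0 and 20.4 CPM in antibiotic fish, against 15.1 to 32.3 CPM, median 21.2, in control fish (0.30 ± 0.32). A single fish, abx67B, carried this difference, and the other 4 lay within the control range. The rest had log2 fold changes of 0.11 ± 0.21 (mtif2), -0.074 ± 0.16 (mtif3), 0.068 ± 0.22 (tsfm), 0.068 ± 0.23 (gfm2), 0.052 ± 0.12 (mrrf), -0.013 ± 0.14 (mtrf1) and 0.19 ± 0.18 (mtrf1l). Among the synthetases 6 of 9 were above 1-fold, with a median of 0.099, and iars2 was at -0.11 ± 0.11, fars2 at 0.036 ± 0.17, rars2 at -0.066 ± 0.16 and sars2 at 0.099 ± 0.17.

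The antibiotic difference depended on fish abx67B and on whether the plate column was in the fit. Without abx67B the median over the 58 genes was -0.0047 and 27 of them were above 1-fold, and with the index plate column of the library as a factor it was 0.0041 and 30 genes (-0.013 and 28 with the doubtful column of abx67C set to 12). Leaving out single fish moved the count at an unadjusted p under 0.05 between 0 (without abx67A, abx67B, ctl12B, ctl35A, ctl35B or ctl35C) and 8 (without ctl12C). The like share of all tested genes was not counted in those fits. For 55 of the 58 genes the upper end of the 95% interval was under a log2 fold change of 1.

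**Figure D5:**
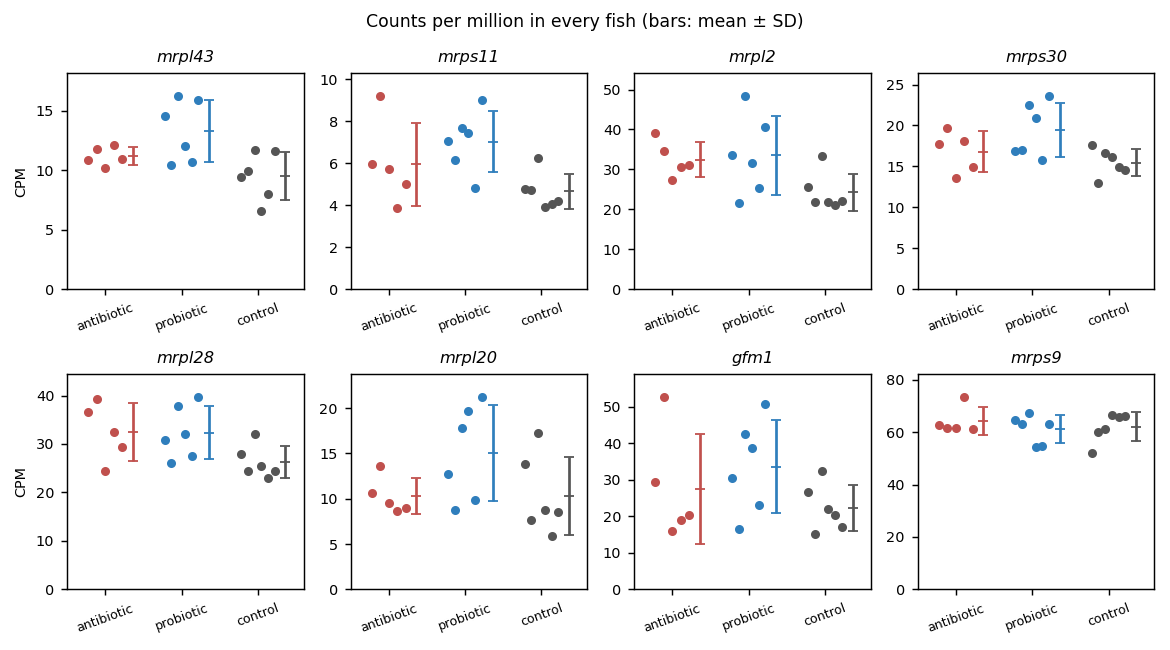
CPM (vertical axes from 0) of 8 of the genes in every fish, with points for fish and bars for the mean and SD of 5 antibiotic, 6 probiotic and 6 control fish. In abx67B gfm1 reached 52.7 CPM with no other antibiotic fish over 29.3 CPM, mrpl43 was above all controls in 4 of 6 probiotic fish, and mrps9 was level across the groups.

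Between the treatments the genes were on the whole lower in antibiotic than in probiotic fish, again with no gene past the test. Of the 58, 13 (22.4%) were above 1-fold and 45 below, against 51.5% of all tested genes above, with a median log2 fold change of -0.13 against 0.0089. By class the medians were -0.085 for the large subunit, -0.13 for the small subunit, -0.15 for the factors and -0.14 for the synthetases. Adjusted p-values of the members ran from 0.834 to 0.998. With edgeR and limma-voom no member had an unadjusted p under 0.05, which with edgeR 3.66% of all tested genes had higher and 2.39% lower. DESeq2 gave 1, mrpl20 (unadjusted p = 0.0497, adjusted p = 0.705). With the index plate column as a factor in edgeR there were 12, and without abx67B there were 10. These fits have no counted share of all tested genes to set beside those numbers. No member was free of overlap (0.218% of all tested genes higher, 0.156% lower). Of all genes, edgeR and limma-voom called 0% and DESeq2 0.0797%, none of them a member.

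The largest gap was that of mrpl20, a protein of the large subunit, at 10.7, 13.6, 9.52, 8.64 and 9.03 CPM in antibiotic fish, against 8.74 to 21.3 CPM, median 15.3, in probiotic fish (-0.55 ± 0.28, edgeR adjusted p = 0.834). Its antibiotic values were close together and its probiotic values fell apart, with 3 fish at 17.8 CPM or more and 3 at 12.69 CPM or less. The exchange factor tsfm was at 20.2, 30.7, 15.4, 16.6 and 17.4 CPM in antibiotic and 18.4 to 33.5 CPM, median 26.7, in probiotic fish (-0.37 ± 0.22, adjusted p = 0.857), and 3 antibiotic fish lay below all probiotic fish. Next by p were mrps30 (-0.21 ± 0.13), mrps21 (-0.18 ± 0.11), mrpl43 (-0.25 ± 0.16), mrpl39 (-0.22 ± 0.14), iars2 (-0.17 ± 0.11) and mtrf1 (-0.21 ± 0.14). The highest fold change was that of mrpl55, at 0.24 ± 0.18.

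The count below 1-fold depended on which fish were kept: without abx67C and abx91B and without pro139B and pro139C, 27 of the 58 genes were above 1-fold and the median was -0.011. This set of fish was taken from earlier work on these data, where other organs' genes stood out in them, but the marker sums used here mark other fish too. For liver genes abx67C had 156 CPM and pro139B 57.8 CPM, while abx67B and pro115B, which were kept, had 115.3 and 76.1 CPM and control fish at most 21.0 CPM. Fish abx91B lay within the control range for liver and pancreas genes. Both comparisons with control use the same control fish, so their values are given side by side only: 45 of the 58 genes were above 1-fold in both, and for 45 genes the probiotic fold change was the larger.

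Genes with a ribosomal protein symbol gave like values with and without a bacterial homologue. The 26 genes with a ribosomal protein symbol and a bacterial homologue had median log2 fold changes against control of 0.13 in antibiotic and 0.22 in probiotic fish. The 15 with such a symbol but no homologue had 0.12 and 0.25. At an unadjusted p under 0.05 the 26 with a homologue gave 2 genes in antibiotic and 6 in probiotic fish, all higher. The 15 without gave 0 and 3, also higher. Of all tested genes 3.68% were higher in antibiotic and 5.29% in probiotic fish at this threshold.

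The largest spread among control fish, by range of log2 CPM, was that of mrps31, mrpl20 and yars2, at 1.57, 1.55 and 1.43. For mrps31 ctl35C had 5.55 CPM and ctl12C had 16.5 CPM, and for mrpl20 ctl35B had 5.85 CPM and ctl12C 17.2 CPM. The median biological coefficient of variation of the 58 genes was 0.218, against 0.304 over all tested genes, and it reached 0.409 for yars2.

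By title number the fish overlapped, though the 3 ctl35 fish (-0.39 to -0.15) and the 2 abx91 fish (-0.14 to -0.032) were all below 0. The ctl12 fish had -0.30 to 0.27 and the abx67 fish -0.23 to 0.39. The mean deviation averaged 0.077 in abx67 and -0.086 in abx91 fish, 0.082 in pro115 and 0.16 in pro139 fish, and -0.029 in ctl12 and -0.23 in ctl35 fish. The titles also give the column of the index plate. The exception is abx67C, whose first index names a well of column 9 and a well of column 12. Its second index names only the well of column 9, so this fish was placed in column 9. The well of column 12 is also the index well of abx67B, and what this means for these libraries was not tested. In column 12 the means were 0.074 for 3 antibiotic, 0.45 for 1 probiotic and 0.061 for 2 control fish, and in column 9 they were -0.082 for 2 antibiotic, 0.15 for 1 probiotic and -0.058 for 1 control fish. Columns 10 and 11 held no antibiotic fish, with 0.071 (2 fish) and -0.0031 (2 fish) in probiotic against -0.16 (1 fish) and -0.35 (2 fish) in control fish. The probiotic mean was higher than the control mean in all 4 columns, and the antibiotic mean in 1 of 2. These means rest on 1 to 3 fish each. In column 10, pro115B (-0.24) lay below the only control fish there, ctl35C (-0.16). With abx67C in column 12, a choice made after seeing the data, the antibiotic means were -0.0016 (4 fish) in column 12 and 0.064 (1 fish) in column 9, below and above the control fish.

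The genes are spread over 35 sequences of the assembly used for the counts, whose build is not named in the sources used here. Many of them share a start region with a neighbour: 21 of 58 (36.2%) have a gene on the other strand that begins within 1000 bases and points away, against 9.63% of all tested genes and 16.8% of the 3827 tested genes with a symbol. Thus mrpl43 begins 134 bases from twnk, the helicase of mitochondrial DNA replication, and mrps18c 108 bases from the DNA helicase gene helq. The members mrpl46 and mrps11 point away from each other with starts 2383 bases apart, beyond the 1000 bases, so they are not among the 21. Exons of mrps35 overlap those of mansc4 and exons of mtrf1 those of wbp4, and since the strand setting of the counting is not given, reads of these pairs may be mixed.

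Genes that work with the mitochondrial ribosome were set beside it from lists of other genes, described by counts alone. With edgeR 0% of all tested genes were called in either comparison with control, so none of these genes was. Whether any of them was among the genes that DESeq2 called is not given here. For the counts at an unadjusted p under 0.05 below, 3.68% of all tested genes were higher and 2.53% lower in antibiotic fish. In probiotic fish 5.29% were higher and 4.42% lower. Genes of a list varied together between fish, as given above, so such a count is not one of separate results. The 25 tested genes of mitochondrial protein import, through which all the proteins above enter, had medians of 0.16 in antibiotic and 0.35 in probiotic fish, with 0 and 14 genes higher at an unadjusted p under 0.05. The smallest p-values were those of timm8b (log2 fold change 0.28 antibiotic and 0.52 probiotic), pam16 (0.062 and 0.67) and tomm22 (0.40 and 0.66). The 50 genes of ribosome assembly and RNA handling had medians of 0.098 and 0.18, with 3 and 10 higher, among them trmt61b (0.47 and 0.62), ptcd3 (0.42 and 0.66) and lrpprc (0.40 and 0.74).

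The 11 genes of mitochondrial DNA and transcription had medians of 0.15 in antibiotic and 0.35 in probiotic fish, with 2 and 4 higher at an unadjusted p under 0.05. The mitochondrial transcription factor tfb2m was at 35.5 ± 5.65, 40.2 ± 8.36 and 29.9 ± 5.26 CPM in antibiotic, probiotic and control fish. The 58 oxidative phosphorylation genes, whose complexes use the products of this ribosome, had medians of only 0.033 and 0.055, with 0 and 2 higher. The 41 cytosolic ribosomal proteins had medians of 0.11 and 0.0053, with 3 and 2 higher.

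The 18 cytosolic tRNA synthetases and partners had medians of 0.29 in antibiotic and 0.30 in probiotic fish, with 2 and 7 higher at an unadjusted p under 0.05, the smallest for aars1 (0.49 and 0.83). The 23 genes of the mitochondrial stress response had medians of 0.14 and 0.15, with 0 and 5 higher and 2 and 0 lower. Among these, dele1, which carries mitochondrial stress to the cytosol in mammals, was at 11.06 ± 0.918, 15.0 ± 2.34 and 10.99 ± 1.89 CPM, and sesn2 at 0.952 ± 0.419, 3.18 ± 1.93 and 2.70 ± 1.32 CPM in antibiotic, probiotic and control fish. The 16 tested LOC entries that a reference table names as further genes of the machinery, a list added after seeing the data, had medians of 0.18 and 0.23, with 0 and 3 higher and 1 and 1 lower.

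Markers of cell types were counted for the same fish, since the labels name the material as epithelium. Enterocyte genes were abundant throughout, with a summed level of 19784 to 25632 CPM in antibiotic, 18795 to 26838 in probiotic and 19564 to 28439 in control fish, and medians of -0.033 and 0.016. Of the 17 tested, 2 in antibiotic and 4 in probiotic fish were lower at an unadjusted p under 0.05, and 0 were higher. Of all tested genes 2.53% and 4.42% were lower. In antibiotic fish 2 enterocyte genes lay below all control fish without overlap, against 0.285% of all tested genes. The 27 cell division genes summed to 142 to 893, 157 to 908 and 108 to 692 CPM, with medians of 0.63 in antibiotic and 0.54 in probiotic fish and 0 and 6 of 24 tested genes higher at an unadjusted p under 0.05. Smooth muscle genes (4) summed to 1138 to 2280, 979 to 2230 and 1374 to 3771 CPM, with medians of -0.23 and -0.42. All 4 were below 1-fold in both comparisons with control, with 0 in antibiotic and 1 in probiotic fish lower at an unadjusted p under 0.05. The 8 erythrocyte genes summed to 42.8 to 83.4, 51.9 to 101 and 58.03 to 185 CPM, with medians of -0.76 in antibiotic and -0.57 in probiotic fish and 3 and 1 genes lower at an unadjusted p under 0.05. The 11 leukocyte genes summed to 418 to 528, 328 to 867 and 286 to 484 CPM, with medians of 0.076 and 0.15. Of these, 1 in antibiotic and 1 in probiotic fish was higher at an unadjusted p under 0.05. Of all tested genes 3.68% and 5.29% were higher at it.

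Genes of other organs had larger median log2 fold changes than the 58 genes. Liver genes (16) summed to 10.30 to 156, 9.83 to 76.1 and 10.99 to 21.0 CPM in antibiotic, probiotic and control fish. Their medians over 14 tested genes were 2.18 in antibiotic fish, with 7 higher at an unadjusted p under 0.05, and 0.78 in probiotic fish, with 1 higher. Fish abx67B and abx67C had liver sums of 115.3 and 156 CPM, and the other antibiotic fish 10.30 to 14.9 CPM. The median liver sum was 14.9, 23.1 and 17.5 CPM in antibiotic, probiotic and control fish. Pancreas genes (6) summed to 12.87 to 84.5, 16.3 to 789 and 17.7 to 136 CPM, with medians over 5 tested genes of -0.88 in antibiotic and 1.23 in probiotic fish and none at an unadjusted p under 0.05. The 789 CPM were those of pro139C, which was also among the 4 high fish above, and the other probiotic fish had 16.3 to 143 CPM. The median pancreas sum was 30.6, 24.0 and 59.3 CPM in antibiotic, probiotic and control fish. Between the treatments the median log2 fold changes were 1.15 for liver and -2.12 for pancreas genes, with 1 higher and 4 lower at that threshold. Of all tested genes 3.66% were higher and 2.39% lower at it. Counts of 0 were found in some fish for a liver ttr entry (7 fish), a pancreas prss1 entry (4 fish) and 3 entries of the cell division list, with mcm3 at 0 in 15 fish. The part of these cells in the differences of the 58 genes was not tested, apart from the smooth muscle covariate above.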

How the data were processed

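The authors deposited a table of raw counts per gene for 17 libraries, with a length in bases per gene (another unit, used only for TPM), per the file headers. The submitters' processing notes name Trimmomatic 0.38 for trimming, HISAT2 for alignment and featureCounts for counting. The genome build, the strand setting and how multi-mapping reads were counted are not stated there. Per the labels, total RNA was sequenced as paired reads of 100 bases.

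An unnamed entry of the deposited counts with mitochondrial positions, 0.155 to 0.523% of counts, was left out. Genes kept by edgeR's filterByExpr were tested (30221), with TMM scaling and edgeR's robust quasi-likelihood test with group as the only factor. Standard errors are the log2 fold change divided by the root of F. Log2 CPM used a prior count of 2. Intervals and p-values assume that fish are independent. The software was edgeR 4.0.16, DESeq2 1.42.0 and limma 3.58.1 under R 4.3.3. The scripts were tested on simulated data. LOC entries took list symbols from a RefSeq gene table (assembly Otsh_v2.0, names only), in which 30285 of the 38153 LOC identifiers were found, 6084 of them with a symbol. Sequences were not used here.

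The members, the lists and the tests were chosen with earlier results of these data known. Genes named are, per comparison, the 8 members with the smallest p; the 6 members of highest and the 3 of lowest TPM; the 3 with the widest range among controls; all factors; the 4 most abundant synthetases; members with a fish set apart from its group; and of other lists the 3 genes with the smallest p (not all are printed). 1 of the 58 genes counts in all totals but is not reported here by itself or drawn. Other names (mrpl9, mrpl30 and mrps27 in the comparisons, neighbours and overlapping genes, mrpl46, marker genes at 0) were chosen after their values were seen.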

Additional observations from a re-analysis of the deposited data

Results flagged for a closer look

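A fish whose value lay far from the rest of its group, by Dixon's criterion at the 95% level, was found in 12 of 174 sets of values (57 genes and the mean deviation in 3 groups), 6.9%, where chance gives about 1 in 20 for independent sets. These sets were not independent, since the genes varied together from fish to fish, so that rate cannot judge the count. In abx67B it was found for 5 genes: mrpl22 had 14.4 CPM, against 9.42 to 10.5 CPM in the other antibiotic fish, mrps6 9.46 CPM against 6.16 to 6.72, mrps22 38.4 CPM against 21.8 to 25.4, wars2 7.60 CPM against 4.28 to 5.02 and iars2 101 CPM against 70.6 to 77.7. In ctl12C it was found for 5 genes as well: mrpl19 had 28.5 CPM, against 16.7 to 20.9 CPM in the other control fish, mrpl55 14.2 CPM against 8.14 to 10.31, mrps11 6.25 CPM against 3.92 to 4.77, mrps17 21.4 CPM against 11.5 to 14.9 and iars2 103 CPM against 77.6 to 86.9. Both fish are among the 4 that were high over most of the 58 genes.

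The other 2 cases were single genes. In abx91A mrps9 had 73.6 CPM, against 61.2 to 62.9 CPM in the other antibiotic fish, although this fish was low for most members. In pro115C mrpl30 had 23.5 CPM, against 18.1 to 19.99 CPM in the other probiotic fish.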

How the results depend on the processing

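No member was called in any of the 14 other settings or the 17 fits that left out a fish. The fold changes of the 8 members with the smallest p in each comparison kept their sign in every setting. Over all 58 members, 27 kept it in antibiotic versus control, 49 in probiotic versus control and 28 in antibiotic versus probiotic. That of gfm1 in antibiotic versus control was -0.084 in 1 of 31 settings. Of all genes, DESeq2 called 26 (antibiotic versus control), 34 (probiotic versus control) and 23 (antibiotic versus probiotic), the plate column 1 in antibiotic versus control and a fit of only the groups compared 1 in probiotic versus control. Fits without a fish gave 0 to 1 there (1 without abx67B or ctl12A). Members above 1-fold, antibiotic versus control, were 30 with the plate column, 28 with abx67C set to column 12 in it (median -0.013) and 27 to 50 without a fish, and the median was -0.0047 to 0.19, its sign turning without abx67B. Antibiotic versus probiotic, the count was 8 with RLE scaling, no filter, DESeq2 or only both groups, 4 with the plate column by either reading, 27 without abx67C and abx91B and pro139B and pro139C, and 4 to 18 without a fish: 4 without abx67B, 6 without pro139B and 8 without pro115B, ctl12A or ctl12C. Probiotic versus control it was 48 to 55 in all settings, with medians of 0.14 to 0.31. Members at an unadjusted p under 0.05 in that comparison were 23 with the plate column (22 with abx67C in column 12) and 3 with the smooth muscle covariate. They were 5 without abx67C, abx91B, pro139B and pro139C, and 7 without the 4 highest fish. The share of all tested genes at that threshold was counted only in the main fit. The causes were not tested. No paired analysis was possible because the groups share no title numbers. Fish with the same number were correlated by 0.040 in voom, a consensus over all tested genes and not over the 58 alone.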
